A study of Saccharomyces cerevisiae with 12 samples.

Results

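The galactose regulon and its regulators are described here as 9 genes of Saccharomyces cerevisiae, chosen by systematic name from the 7123 genes of the count table, and all 9 passed the read filter. The structural genes are GAL2 (YLR081W), which encodes the galactose permease, GAL1 (YBR020W), which encodes galactokinase, GAL7 (YBR018C), which encodes the uridylyltransferase, and GAL10 (YBR019C), which encodes the epimerase. The regulators are GAL3 (YDR009W), the galactose sensor, GAL80 (YML051W), the repressor, and GAL4 (YPL248C), the activator. PGM2 (YMR105C), the major phosphoglucomutase, and MTH1 (YDR277C), a negative regulator in glucose sensing, complete the set. GAL7, GAL10 and GAL1 lie side by side on chromosome II, and the other genes are scattered over chromosomes IV, XII, XIII and XVI.

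The study sequenced mRNA from W303 derived wild type (WT) cells and cells that lack RAD30 (rad30Δ), the gene of the translesion polymerase Polη. Cells in rich medium with 2% raffinose were held in G2/M by 80 µg/ml benomyl over 3 h, and the G2/M samples were taken then. For the galactose samples, 2% galactose was added for 1 h, which turns on the HO endonuclease from a GAL promoter (PGAL-HO) and so breaks chromosome III at MAT. Each of the 4 groups held 3 libraries. All groups shared the medium, the arrest and PGAL-HO, and no library received galactose without HO or glucose in place of raffinose. Most listed strains also express SMC1 from a GAL promoter (PGAL-SMC1-MYC), and reads on SMC1 rose with galactose in both strains. The responses to galactose, to the break and to any added SMC1 therefore cannot be told apart.

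Libraries held 5442935 to 7289514 reads. RAD30 had 0 reads in all 6 rad30Δ libraries and between 38.6 and 52.4 CPM (read counts relative to the scaled library size) in the 6 WT libraries. The WT libraries expressed STE2, the α-factor receptor of MATa cells, and the rad30Δ libraries expressed STE3, the a-factor receptor of MATα cells, so deletion of RAD30 and other strain differences such as mating type cannot be told apart. The study lists strains that carry PGAL-HO at ADE3, the smc1-259 allele and PGAL-SMC1-MYC, and the sources used here do not say which of them were sequenced. Mean reads on SMC1 rose with galactose from 181 to 5574 CPM in WT and from 153 to 3992 CPM in rad30Δ cells. Every listed strain with PGAL-SMC1-MYC also carries smc1-259. Every listed MATα strain that lacks RAD30 and has PGAL-HO carries both. Replicate 3 of rad30Δ cells after galactose stood apart, with a scaling factor of 0.873 and 0.205% of reads on mitochondrial genes against 0.0114% to 0.0743% in the other libraries.

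In yeast, Gal4 binds upstream of the GAL genes and activates them, Gal80 binds Gal4 and holds it inactive, and galactose-bound Gal3 takes Gal80 away from Gal4. Raffinose neither induces the pathway nor represses it as glucose does. The permease brings galactose in, and the enzymes of the Leloir pathway turn it into glucose 1-phosphate, which phosphoglucomutase converts to glucose 6-phosphate. Gal4 recognises CGG and CCG triplets held 11 bases apart (CGGNNNNNNNNNNNCCG), a motif that is its own reverse complement.

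**Figure D1:**
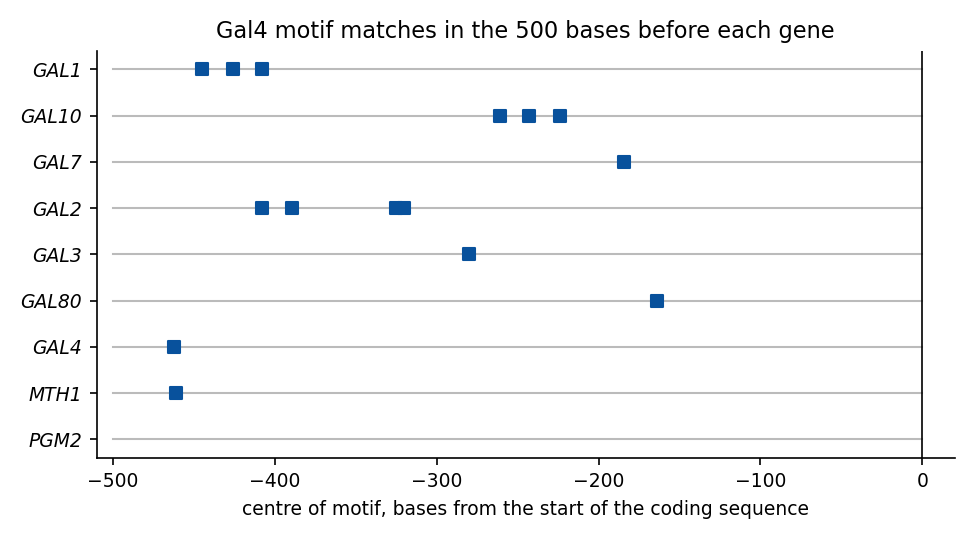
Squares mark the centre of each match to CGGNNNNNNNNNNNCCG, with the horizontal axis giving bases from the start of the coding sequence and 1 row for each of the 9 genes over 500 bases. GAL2 held 4 matches, GAL1 and GAL10 held 3 each, and PGM2 held 0.

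The stretches that hold these sites are shown for the 6 members with the largest galactose responses, of which GAL1 and GAL10 share a stretch, since the largest values that follow belong to these genes. They were read from the R64 reference genome of RefSeq, the assembly that sacCer3 names, each on the coding strand of the gene and with 10 bases on either side. Capitals mark the CGG and CCG triplets of each match to CGGNNNNNNNNNNNCCG.
GAL1 upstream, chrII:278558-278631, plus strand: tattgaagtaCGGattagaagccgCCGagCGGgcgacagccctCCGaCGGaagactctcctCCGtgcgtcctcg
GAL7 upstream, chrII:275693-275729, minus strand: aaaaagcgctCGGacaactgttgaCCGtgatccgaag
GAL2 upstream, chrXII:289786-289910, plus strand: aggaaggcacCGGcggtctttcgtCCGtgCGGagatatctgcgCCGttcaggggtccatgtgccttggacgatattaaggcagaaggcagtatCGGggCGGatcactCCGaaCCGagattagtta
GAL3 upstream, chrIV:463136-463172, plus strand: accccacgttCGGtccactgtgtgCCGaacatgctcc
GAL80 upstream, chrXIII:171412-171448, plus strand: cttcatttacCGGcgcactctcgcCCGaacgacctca

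The 3 matches in front of GAL1 lie in the 668 bases between GAL10 and GAL1 (chrII:278353-279020), which are transcribed away from each other, so they also count as the 3 matches in front of GAL10. Their centres lie 445, 426 and 408 bases before the GAL1 coding sequence and 261, 243 and 224 bases before that of GAL10. GAL7 had 1 match, centred 184 bases before its coding sequence, and GAL80 had 1 at 164 bases. In front of GAL2 there were 4 matches, of which the last 2 overlap, and GAL3 had 1 at 280 bases. MTH1 had 1 match at 461 bases. The 1 match in front of GAL4, at 462 bases, lies inside the coding sequence of its neighbour YPL247C.

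Of 6002 coding genes scanned in this way on both strands, 179 (2.98%) held at least 1 match and 7 (0.117%) held at least 2. GAL1, GAL10 and GAL2 were 3 of those 7. A match is a description of letters and does not show that Gal4 was bound.

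After 1 h of galactose 8 of the 9 genes were higher in both strains, and the remaining gene, GAL4, did not pass the test in either. In WT cells 8 of 9 were called higher and 0 lower, against 6.07% of all 6490 tested genes called higher and 6.29% called lower (12.4% in either direction). In rad30Δ cells the same 8 were called higher and 0 lower, against 3.68% and 2.65% of all tested genes (6.33% in either direction). The median log2 fold change of the 9 genes was 3.41 in WT and 3.99 in rad30Δ cells, and that of all tested genes was 0.004 in both. Calls are edgeR quasi-likelihood tests with an adjusted p under 0.05, and values after ± in the fold changes are standard errors. In bulk RNA, more cells responding and more mRNA per cell cannot be told apart.

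**Figure D2:**
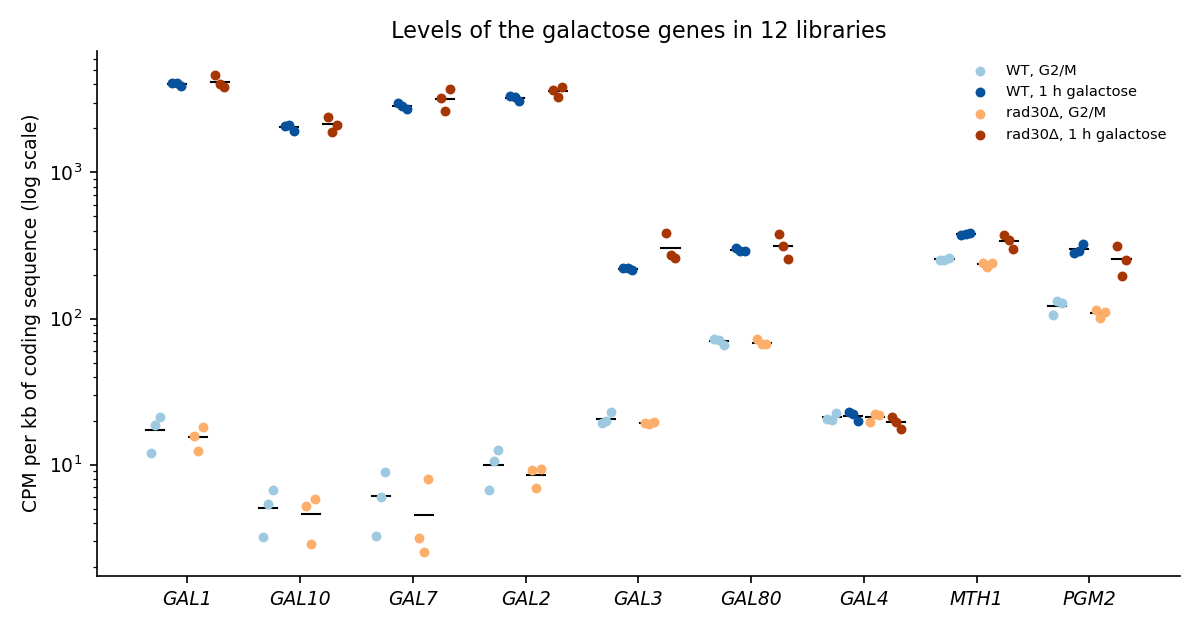
Points give CPM per kb of coding sequence (log scale) of each gene in each of the 12 libraries, with 3 points per group and a black line at the group mean. The 4 structural genes went from the lowest levels of the set in G2/M arrest to the highest after 1 h of galactose, while the 4 groups of GAL4 lay on top of each other.

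GAL2, the permease, gave 11.6, 18.4 and 21.9 CPM in the 3 libraries of G2/M arrested WT cells and 5758, 5652 and 5287 CPM after galactose. The rad30Δ libraries gave 15.8, 11.96 and 16.2 CPM in arrest and 6348, 5631 and 6592 CPM after galactose. Every library with galactose lay far above every arrested library, and the strains overlapped at both times. The fitted rise was 323-fold in WT (log2 8.34 ± 0.21, adjusted p = 3.32e-11) and 424-fold in rad30Δ cells (log2 8.73 ± 0.22, adjusted p = 2.37e-11).

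GAL1, the galactokinase of the first step, stood at 19.2, 29.5 and 33.7 CPM in arrested WT cells and at 6474, 6521 and 6184 CPM after galactose. In the rad30Δ libraries GAL1 stood at 25.1, 19.8 and 28.95 CPM in arrest and at 7401, 6387 and 6116 CPM after galactose. The groups with and without galactose were far apart, and the strains overlapped at both times. GAL1 rose 233-fold in WT (log2 7.87 ± 0.22, adjusted p = 5.98e-11) and 270.2-fold in rad30Δ cells (log2 8.08 ± 0.22, adjusted p = 4.91e-11).

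GAL7, the uridylyltransferase of the next step, had the fewest reads before galactose, from 21 to 64 per library. In WT cells it went from 3.58, 6.58 and 9.85 CPM to 3296, 3140.4 and 2997 CPM. In rad30Δ cells it went from 3.47, 2.79 and 8.78 CPM to 3543, 2898 and 4082 CPM. This was the largest fold change of all tested genes in both strains, 475-fold in WT (log2 8.89 ± 0.36, adjusted p = 3.43e-09) and 706-fold in rad30Δ cells (log2 9.46 ± 0.37, adjusted p = 1.76e-09). This fold change had the largest standard error of the set in both strains.

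GAL10, the epimerase that recycles the nucleotide sugar, read 6.75, 11.2 and 14.01 CPM in arrested WT cells and 4371, 4414 and 4028 CPM after galactose. In rad30Δ cells the values were 10.9, 5.98 and 12.2 CPM and then 5039, 3996 and 4402 CPM. Both strains ended in the same range. The rise ranked second among all tested genes in both strains, at 403-fold in WT (log2 8.65 ± 0.27, adjusted p = 2.01e-10) and 467-fold in rad30Δ cells (log2 8.87 ± 0.27, adjusted p = 1.82e-10). GAL2 ranked 3 and GAL1 ranked 4 in both strains.

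Before galactose the 4 structural genes varied together between libraries of a group. In arrested WT cells replicate 1 was the lowest for all 4, and in arrested rad30Δ cells replicate 2 was. The coefficient of variation over the 3 arrested WT libraries ran from 27.3% for GAL1 to 47.0% for GAL7, and after galactose it ran from 2.85% for GAL1 to 4.95% for GAL10. An annotated antisense RNA, YNCB0008W (chrII:276805-280645), overlaps both GAL10 and GAL1 and is not counted in the table. No source used here says whether the counting used strand, so its reads and those of both genes cannot be told apart.

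The sensor GAL3 stood at 29.9, 31.3 and 35.7 CPM in arrested WT cells and at 344, 346 and 336 CPM after galactose. The rad30Δ values were 29.98, 29.5 and 30.8 CPM and then 602, 425 and 404 CPM. Its 3 galactose values in rad30Δ cells all lay above the 3 in WT cells, with replicate 1 the highest. The rise was 10.6-fold in WT (log2 3.41 ± 0.14, adjusted p = 4.15e-09, rank 13) and 15.8-fold in rad30Δ cells (log2 3.99 ± 0.14, adjusted p = 7.71e-10, rank 9). GAL3 and GAL1 are paralogues with 70.0% identical bases over their coding sequences, and their longest identical run was 22 bases.

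GAL80, the repressor, went from 94.5, 92.8 and 86.8 CPM to 395, 376 and 380.3 CPM in WT cells. The corresponding rad30Δ values went from 94.8, 86.9 and 86.9 CPM to 492, 413 and 333 CPM. The arrested groups overlapped, and the rad30Δ libraries spread widely around the WT ones after galactose. GAL80 rose 4.2-fold in WT (log2 2.07 ± 0.12, adjusted p = 1.2e-07) and 4.61-fold in rad30Δ cells (log2 2.21 ± 0.12, adjusted p = 4.82e-08).

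GAL4, the activator itself, gave 54.2, 53.9 and 60.2 CPM in arrested WT cells and 60.7, 58.7 and 52.6 CPM after galactose. The rad30Δ libraries gave 52.1, 59.0 and 58.1 CPM and then 56.2, 51.6 and 46.7 CPM. The groups overlapped in both strains. Its log2 fold change was 0.03 in WT (95% interval -0.16 to 0.22, adjusted p = 0.835) and -0.13 in rad30Δ cells (95% interval -0.32 to 0.07, adjusted p = 0.429), so any change of GAL4 mRNA was small beside those of its targets. An annotated non-coding RNA, YNCP0002W (chrXVI:79562-82648), covers GAL4, and their reads cannot be told apart.

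**Figure D3:**
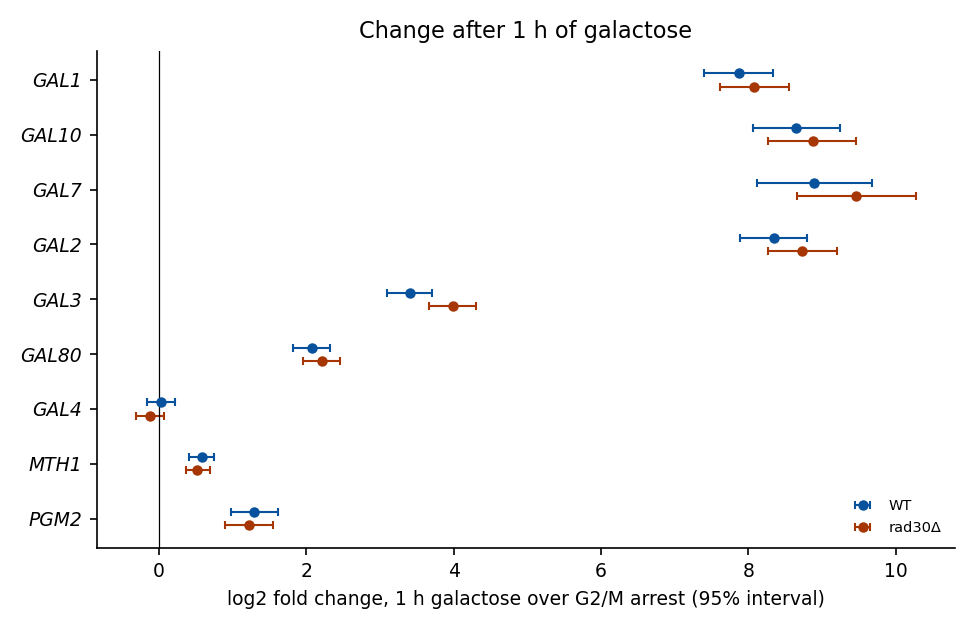
Points give the log2 fold change after 1 h of galactose for each gene in WT (blue) and rad30Δ (brown) cells, and bars give 95% intervals of the edgeR fit. The 9 genes fall into the 4 structural genes above 7.8, GAL3 at 3.41 and 3.99, GAL80 near 2, PGM2 and MTH1 between 0.52 and 1.29, and GAL4 around 0.

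PGM2, which links the Leloir pathway to glycolysis, read 179.8, 226 and 219 CPM in arrested WT cells and 480.2, 496 and 552 CPM after galactose. In the mutant it read 196, 173 and 190.5 CPM and then 536, 335 and 432 CPM. All galactose libraries lay above all arrested ones, and replicate 2 of the rad30Δ cells was the lowest of the former. The rise was 2.45-fold in WT (log2 1.29 ± 0.15, adjusted p = 0.000126) and 2.33-fold in rad30Δ cells (log2 1.22 ± 0.15, adjusted p = 0.000187). PGM2 had no Gal4 motif in its 500 bases.

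Its paralogue PGM1, the minor phosphoglucomutase, did not rise. PGM1 went from 139, 135 and 130.4 CPM to 105, 118 and 101 CPM in WT cells, a fall called at a log2 fold change of -0.32 (adjusted p = 0.038) that no longer passed in 6 of the 20 settings, 5 of them leaving out a WT library. In rad30Δ cells its log2 fold change was -0.13 (adjusted p = 0.442). UGP1, which makes the UDP-glucose used by the pathway, stood at log2 -0.12 in WT (adjusted p = 0.619) and -0.13 in rad30Δ cells (adjusted p = 0.665). The coding sequences of PGM1 and PGM2 share 74.1% of bases, with a longest identical run of 23.

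MTH1, which with its paralogue Std1 keeps glucose transporter genes repressed through Rgt1, changed least among the 8 genes called. It went from 327, 326 and 339 CPM to 487, 493 and 502 CPM in WT cells. In the mutant it went from 312, 295 and 310.5 CPM to 483, 448 and 388 CPM. The groups did not overlap in either strain. The rise was 1.49-fold in WT (log2 0.58 ± 0.08, adjusted p = 0.000526) and 1.44-fold in rad30Δ cells (log2 0.52 ± 0.08, adjusted p = 0.00124). In rad30Δ cells the call was lost when those 6 libraries were fitted alone (adjusted p = 0.0678).

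Compared per length of coding sequence, the order of the genes turned over. In arrested WT cells MTH1 was highest with 254 ± 5.42 CPM per kb (SD, n = 3), followed by PGM2 with 122 ± 14.6 and GAL80 with 69.9 ± 3.09. GAL4 and GAL3 did not differ beyond their spread, at 21.2 ± 1.35 and 20.7 ± 1.94, and the ranges of GAL3 and GAL1, of GAL1 and GAL2, of GAL2 and GAL7 and of GAL7 and GAL10 overlapped as well. GAL10 was the lowest there with 5.08 ± 1.74 CPM per kb.

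After galactose GAL1 led in WT cells with 4028 ± 115 CPM per kb (SD, n = 3), followed by GAL2 with 3227 ± 144, GAL7 with 2856 ± 136 and GAL10 with 2034 ± 101, with no overlap between neighbours. MTH1 came next at 379.6 ± 5.92 CPM per kb. The ranges of PGM2 and GAL80 overlapped at 298 ± 22.0 and 293 ± 7.56, GAL3 lay below them at 219 ± 3.43, and GAL4 was the lowest at 21.7 ± 1.61. In rad30Δ cells the structural genes kept that order of means, with GAL2 and GAL7 overlapping, while MTH1, GAL80, GAL3 and PGM2 overlapped each with the next.

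In sum over the 9 genes, 0.081% ± 0.00577 of all reads fell on them in arrested WT cells and 2.08% ± 0.0578 after galactose (SD, n = 3). The rad30Δ cells gave 0.074% ± 0.00304 and 2.16% ± 0.241. HO and SMC1, which GAL promoter constructs of the listed strains express, and ADE3, where PGAL-HO sits, took further reads. Together these genes held 1.02% of reads in WT and 0.806% in rad30Δ cells after galactose. Each response separated the groups without overlap, and the exact permutation test (two-sided) gave p = 0.1, the smallest that 3 against 3 allow. Between the strains the exact permutation test gave p = 0.9 after galactose and p = 0.3 in arrest. Over the 28 exact permutation tests made here, p = 0.1 became 0.165 after Benjamini-Hochberg adjustment, so none of them could pass.

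Ratios of reads per kb within a library do not depend on the scaling of libraries. The ratio of GAL80 to GAL4 was 3.53, 3.48 and 2.92 in arrested WT cells and 13.2, 12.9 and 14.6 after galactose. In the mutant it was 3.68, 2.98 and 3.03 and then 17.7, 16.2 and 14.4. Repressor mRNA thus gained on activator mRNA in all 6 galactose libraries.

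The ratio of GAL3 to GAL80, sensor over repressor, was 0.265, 0.282 and 0.344 in arrested WT cells and 0.730, 0.771 and 0.740 after galactose. The rad30Δ ratio was 0.265, 0.284 and 0.297 and then 1.02, 0.862 and 1.01. The strains overlapped before galactose and did not overlap after it (exact permutation p = 0.1, the smallest possible, 0.165 after adjustment over 28 tests). The mean log2 difference between the strains after galactose was 0.37.

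Within the cluster on chromosome II, the ratio of GAL10 to GAL1 went from 0.289 to 0.505 in WT and from 0.291 to 0.510 in rad30Δ cells, as means of 3 libraries. The ratio of GAL7 to GAL1 went from 0.338 to 0.709 and from 0.280 to 0.769. GAL7 and GAL10 thus gained more than GAL1 did, with no overlap between arrested and galactose libraries for either ratio. The ratio of PGM2 to PGM1 went from 1.55 to 4.75 in WT and from 1.31 to 3.29 in rad30Δ cells. After galactose the strains did not overlap in this ratio, with a mean log2 difference of -0.54. Both genes enter that difference. In this comparison edgeR called PGM1 higher in rad30Δ cells (log2 0.29 ± 0.09, adjusted p = 0.0362, passed in 14 of 20 settings). PGM2 was not called (log2 -0.23). For the ratio of MTH1 to STD1 the strains did not overlap in arrest, with a mean log2 difference of -0.34. Each of these ratio differences between the strains gave an exact permutation p of 0.1 (0.165 after adjustment over 28 tests).

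**Figure D4:**
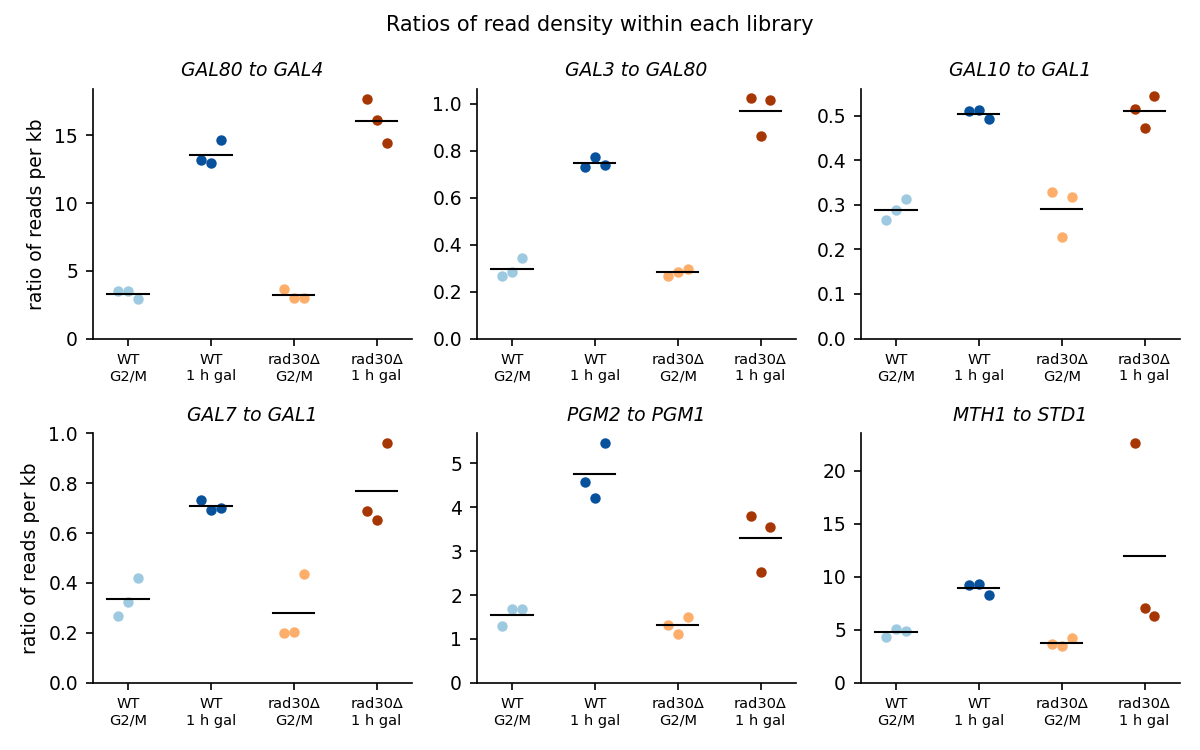
Each panel gives a ratio of reads per kb in the 12 libraries, with 3 points per group and a black line at the mean. All 6 ratios were higher in every galactose library than in any arrested library of the same strain. The GAL3 to GAL80 ratio was higher in the rad30Δ (0.862 to 1.02) than in the WT galactose libraries (0.730 to 0.771). The PGM2 to PGM1 ratio was lower in the rad30Δ (2.52 to 3.79) than in the WT galactose libraries (4.21 to 5.47). In arrest the MTH1 to STD1 ratio was lower in rad30Δ (3.47 to 4.23) than in WT libraries (4.33 to 5.12).

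Between the arrested strains 0 of the 9 genes were called by edgeR, with 0 genes below 0.05 before adjustment and 0 calls from DESeq2, against 10.8% of all tested genes (4.71% higher and 6.1% lower in rad30Δ cells). Log2 fold changes ran from -0.42 for GAL7 (95% interval -1.3 to 0.47) to 0.01 for GAL4 (95% interval -0.18 to 0.2). The intervals of GAL80, GAL4 and MTH1 stayed within 0.28 of 0 on the log2 scale. Those of the structural genes were wider, and a basal difference within the GAL7 interval could not be told from 0.

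After galactose 1 of the 9 genes, GAL3, was called higher in rad30Δ than in WT cells and 0 were called lower, against 11.6% and 11.8% of all tested genes (23.5% in either direction). DESeq2 also called 1. GAL3 was 1.39-fold higher, with a log2 fold change of 0.48 ± 0.12 (95% interval 0.21 to 0.75, adjusted p = 0.015) and with 3 of 3 rad30Δ libraries above all WT libraries. The call was lost when the 6 galactose libraries were fitted alone (log2 0.50, adjusted p = 0.0702) and without WT replicate 3 (log2 0.47, adjusted p = 0.0569).

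The other 8 genes did not pass. GAL1 differed by 0.05 on the log2 scale (95% interval -0.28 to 0.39), GAL10 by 0.07 (-0.34 to 0.47), GAL7 by 0.16 (-0.36 to 0.68) and GAL2 by 0.15 (-0.17 to 0.48). MTH1 was at -0.17 (95% interval -0.34 to 0.0, adjusted p = 0.141) and PGM2 at -0.23 (95% interval -0.54 to 0.08, adjusted p = 0.274). Without rad30Δ replicate 1, which was the highest library of its group for 7 of the 9 genes, 3 genes were called, namely GAL3 higher, MTH1 lower (log2 -0.24, adjusted p = 0.0389) and PGM2 lower (log2 -0.41, adjusted p = 0.0327). Without rad30Δ replicate 3, the library that stood apart, 2 were called, namely GAL3 and GAL80 higher (GAL80 log2 0.24, adjusted p = 0.0339).

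The test of whether the responses differ between the strains called 0 of the 9 genes, against 0.0616% of all tested genes, each of these lower and 0 higher. Before adjustment 1 gene, GAL3, was below 0.05, and DESeq2 likewise called 0 and had 1. The GAL3 response was larger in rad30Δ cells by 0.58 ± 0.19 on the log2 scale (95% interval 0.17 to 0.99), and its adjusted p of 0.219 missed the threshold. For the structural genes the difference ran from 0.21 for GAL1 (95% interval -0.31 to 0.74) to 0.57 for GAL7 (95% interval -0.45 to 1.6). For MTH1 it was -0.06 (95% interval -0.29 to 0.18) and for PGM2 -0.07 (95% interval -0.51 to 0.37). The 4 comparisons share libraries pairwise, so these values are given side by side.

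**Figure D5:**
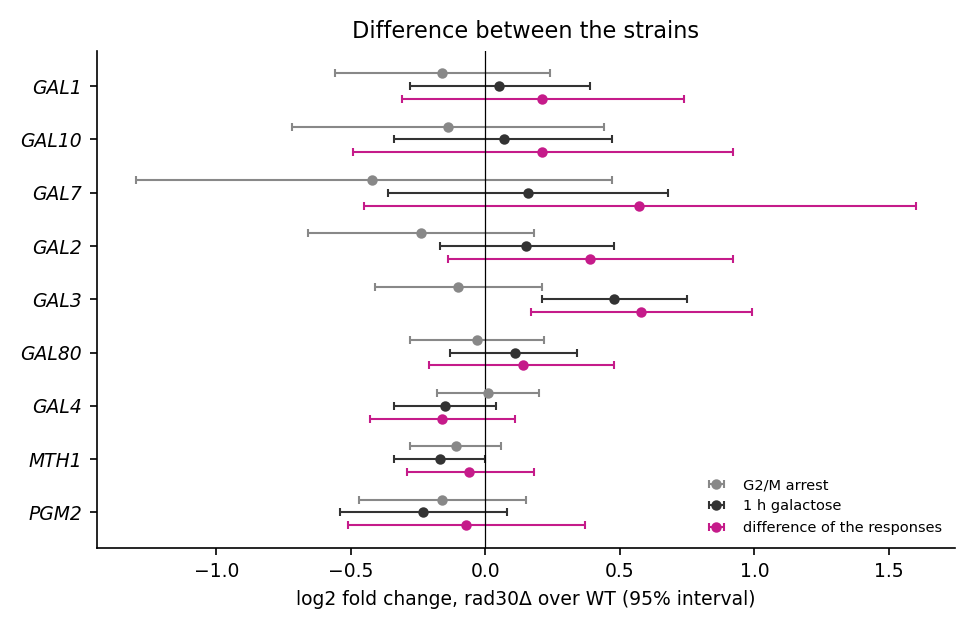
Points give the log2 fold change of rad30Δ over WT cells in G2/M arrest (grey) and after 1 h of galactose (black) and the difference of the 2 responses (pink), with bars for 95% intervals of the edgeR fit. Only the GAL3 intervals after galactose (0.21 to 0.75) and for the difference of the responses (0.17 to 0.99) lie clear of 0.

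Of 32 other genes of the pathway and its regulation, 7 were called higher and 4 lower in WT cells after galactose, and 7 higher and 1 lower in rad30Δ cells. Over all tested genes the shares were 6.07% higher and 6.29% lower in WT, and 3.68% and 2.65% in rad30Δ cells. The median log2 fold changes of the 32 were -0.11 and -0.06. The 7 higher genes were the same in both strains: the known Gal4 targets GCY1, PCL10 and FUR4, the construct genes HO and SMC1, ADE3 (the site of PGAL-HO), and LAP3. All but LAP3 were listed as Gal4 targets or for the constructs, so their rise was foreseeable. The count of 7 beside these shares is therefore no result about the pathway as a whole.

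GCY1, a glycerol dehydrogenase gene, rose most among the Gal4 targets outside the pathway. It went from 82.4, 125 and 106 CPM to 723, 755 and 665 CPM in WT cells. The rad30Δ libraries went from 94.7, 96.2 and 73.5 CPM to 1241, 947 and 861 CPM. As with GAL3, all 3 rad30Δ galactose libraries lay above the WT ones, by 0.51 on the log2 scale (adjusted p = 0.0352), a call lost in 5 of the 20 settings (without any of the 3 WT galactose libraries, WT arrested replicate 3 or rad30Δ galactose replicate 1). The rises were log2 2.78 ± 0.17 and 3.53 ± 0.18 (adjusted p = 3.4e-07 and 2.54e-08), and the difference of the responses was 0.75 ± 0.23 (adjusted p = 0.199).

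PCL10, a cyclin of the Pho85 kinase, rose in the WT by log2 0.91 ± 0.15 and in the mutant by 1.13 ± 0.15 (adjusted p = 0.00235 and 0.000421). FUR4, the uracil permease, rose by log2 1.75 ± 0.10 and 1.33 ± 0.09 (adjusted p = 8.31e-08 and 1.15e-06). GCY1 and PCL10 each held 1 match to the Gal4 motif, and FUR4 held 0 in its 500 bases. LAP3, a cysteine aminopeptidase gene with the alias GAL6, rose in the WT by log2 0.51 ± 0.06 and in the mutant by 0.66 ± 0.06 (adjusted p = 0.000249 and 2.94e-05). The calls of these 4 genes after galactose held in all 20 settings.

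The reads on SMC1, a cohesin subunit, came from 168, 184 and 190.4 CPM to 5622, 5729.9 and 5370.0 CPM in WT cells and from 147, 147 and 165 CPM to 4288, 4213 and 3474 CPM in rad30Δ cells. Here the order of the strains after galactose was opposite to that of GAL3, with all 3 rad30Δ libraries below the WT ones (log2 -0.48 ± 0.09, adjusted p = 0.00252). HO rose in the WT by log2 6.82 ± 0.12 and in the mutant by 6.78 ± 0.12 (adjusted p = 1.11e-12 and 1.2e-12) and differed between the strains after galactose by -0.12 (95% interval -0.32 to 0.08). Copy number of the constructs was not tested.

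On the side of glucose repression, 0 of 10 genes around Mig1 and Tup1 were called higher in either strain, and 1 was called lower in each. For this list and those that follow, 6.07% of all tested genes were called higher and 6.29% lower in WT cells. In rad30Δ cells these shares were 3.68% and 2.65%. The gene called lower was GLC7, the catalytic subunit of protein phosphatase 1, in WT cells (log2 -0.45, adjusted p = 0.0273, not passed without any of 5 of the 6 WT libraries). In rad30Δ cells it was MIG2, a repressor related to Mig1 (log2 -1.31, adjusted p = 0.0287, passed in 16 of 20 settings). The MIG2 fold change in WT cells was also negative (log2 -0.68 ± 0.31, adjusted p = 0.173). Before adjustment 3 of the 10 were below 0.05 in WT cells (GLC7, HXK2 and MIG2) and 2 in rad30Δ cells (MIG2 and CYC8). DESeq2 called 2 in WT cells, GLC7 and the hexokinase gene HXK2, for which edgeR gave log2 -0.34 ± 0.11 (adjusted p = 0.071), and 1 in rad30Δ cells. Of the 5 genes of the SNF1 kinase complex, 2 were called lower in WT cells, SNF4 (log2 -0.44 ± 0.07, adjusted p = 0.00194) and SNF1 (log2 -0.28 ± 0.07, adjusted p = 0.0244, not passed without any of the 6 WT libraries), and 0 in rad30Δ cells, where 0 were below 0.05 before adjustment and DESeq2 called 0. Of the 7 genes that act with MTH1 in glucose sensing, edgeR and DESeq2 called 0 in either strain, with 1 below 0.05 before adjustment in each, YCK2 in WT and STD1 in rad30Δ cells.

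Between the strains, 1 of the 32 genes was called in arrest, against 10.8% of all tested genes. It was FUR4 (log2 0.35 ± 0.10, adjusted p = 0.0342, not passed in 6 of 20 settings, all of them leaving out a library). After galactose 6 were called higher and 2 lower in rad30Δ cells, close to the 23.5% of all tested genes called in this comparison (11.6% higher and 11.8% lower). SNF4, the activating subunit of the kinase, was higher by log2 0.42 ± 0.07 (adjusted p = 0.00118) in all 20 settings. Among the others, SIP2, a beta subunit of the kinase, was higher by log2 0.33 ± 0.11 (adjusted p = 0.0467, passed in 10 of 20 settings). GRR1, an F-box protein gene, was lower by log2 -0.26 ± 0.07 (adjusted p = 0.0194, passed in 17 of 20). SNF1 was higher by log2 0.24 ± 0.07 (adjusted p = 0.0262, passed in 16 of 20). PGM1 was higher by 0.29 ± 0.09 (adjusted p = 0.0362, 14 of 20) and LAP3 by 0.23 ± 0.06 (adjusted p = 0.0205, 15 of 20). GCY1 and SMC1, described above, make up the rest. The edgeR test of the difference between the responses called 0 of the 32, with 5 below 0.05 before adjustment, and DESeq2 called 0.

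Next to the 9 genes lie 13 other tested genes, of which 3 were called higher in each strain, and 2 were called lower in WT and 1 in rad30Δ cells, against 6.07% higher and 6.29% lower of all tested genes in WT and 3.68% and 2.65% in rad30Δ cells. YDR010C, which faces GAL3 from the opposite strand with 54 bases between them, stood at 6.82 ± 0.889 CPM in arrested WT cells and at 167 ± 11.1 CPM with galactose, and at 9.28 ± 1.93 and 151 ± 13.2 CPM in the mutant (SD, n = 3). It rose in both strains (log2 4.61 ± 0.13 and 4.01 ± 0.13, adjusted p = 7.93e-11 and 1.82e-10). The difference of its responses was -0.60 ± 0.20 (adjusted p = 0.219), opposite in sign to that of GAL3. EMP46, upstream of GAL2, rose by log2 0.79 ± 0.14 and 0.88 ± 0.14 (adjusted p = 0.00296 and 0.00179). FUR4 follows GAL1 on the same strand after 835 bases. Reads that run on past the end of GAL3 into YDR010C, or of GAL1 into FUR4, cannot be told apart from those of the neighbour.

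KAP104, which lies beyond the end of GAL7, and SRL2, beyond the end of GAL2, were lower by log2 -0.32 and -0.44 in WT cells (adjusted p = 0.0049 and 0.0114). In rad30Δ cells SRL2 was called at -0.49 (adjusted p = 0.0104) and KAP104 stood at -0.17 (adjusted p = 0.105). The SRL2 calls were lost in WT without replicate 3 of either WT group and in rad30Δ cells when these libraries were fitted alone. The remaining neighbours, 8 of 13 in WT and 9 of 13 in rad30Δ cells, did not pass.

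Over the 12 libraries, the genes with the pattern most like that of GAL1 outside the set were HO (Pearson r = 0.998 on log2 CPM), SMC1 (r = 0.996), YDR010C (r = 0.993), ADE3 (r = 0.993), RGL1 (r = 0.991) and SDD1 (r = 0.989), out of 5424 genes averaging 10 CPM or more. For MTH1 they were AHA1 (r = 0.975), SMC1 (r = 0.961), MBF1 (r = 0.949), ENO2 (r = 0.943), YLR152C (r = 0.943) and SIS1 (r = 0.942). The points share the 4 groups, so such a correlation mainly describes the difference between arrest and galactose.

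RGL1, a regulator of Rho1 signalling, averaged 85.0 and then 382 CPM in WT libraries, and 89.9 and then 483 CPM in the mutant. SDD1 went from 12.4 to 158 CPM and from 16.1 to 234 CPM. Both hold a match to the Gal4 motif in their 500 bases.

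Outside the set, 167 tested genes had at least 1 such match. Of these, 25 (14.97%) were called higher in WT cells after galactose and 16 (9.58%) in the mutant, against 5.8% and 3.71% of the 5691 tested genes without one. The shares called lower were not compared, so more rises and more calls in either direction cannot be told apart here. The median log2 fold changes of the 167 were -0.02 and 0.08. Those higher in both strains numbered 14, namely EDS1, ENO2, FAR1, GCY1, HTC1, LAP3, MLF3, MSK1, PCL10, RGL1, RTC3, RUP1, SDD1 and SSA4.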

How the data were processed

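RNA-seq counts of 12 libraries, 3 in each of 4 groups, were analysed. The authors enriched mRNA, sequenced it in pairs, trimmed with cutadapt, aligned with HISAT2 to the sacCer3 genome, took out duplicates with Picard and deposited featureCounts counts per gene. Duplicate removal can lower the counts of the genes with most reads per length, which was not tested. The sources used here give neither tool versions nor strandedness. The deposited comparison tables hold the authors' fold changes, p-values and mean expression and were not used.

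The 6490 genes with 10 or more reads over all libraries were scaled by TMM and fitted over all 12 libraries with edgeR 4.0.16 in R 4.3.3, with quasi-likelihood tests and Benjamini-Hochberg adjustment over all genes at 0.05. Standard errors are the log2 fold change divided by the square root of F, and intervals (95%) use the t quantile of the fit. Alternatives were DESeq2 1.42.0, RLE, TMM without the induced genes, filterByExpr, no filter, the libraries of a comparison alone, replicate blocks and leaving out each library. Tests were checked on simulated data. Motifs and identities were computed in Python 3.11.15 with Biopython 1.88, and 6044 names were matched to RefSeq R64. Likeness used log2(CPM + 0.5).

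The genes and lists were chosen with earlier results of these data known. Genes to be named were taken from all 9 members, every gene of lists of up to 5 genes, up to 4 genes with the smallest p of longer lists, the neighbours of the members, and the 6 genes most like GAL1 and MTH1. Of these, some that passed no test are given only in counts. Names of the 14 genes with a motif were listed after their values were seen. The sources do not say that replicates were separate cultures, so p-values reflect only the spread among these libraries, which may be technical. Deviations from group means of libraries with equal numbers before and after galactose correlated at 0.038, 0.103 and 0.004 in WT, which does not pair them, and at 0.194, 0.148 and 0.343 in the mutant, where every value passes the pairing limit of 0.1.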

Additional observations from a re-analysis of the deposited data

How the results depend on the processing

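The direction and the call of the 8 induced genes in both strains held in all 20 settings, with 1 exception, MTH1 in rad30Δ cells when these 6 libraries were fitted alone (log2 0.52, adjusted p = 0.0678). GAL1 ranged from 7.66 to 8.04 in WT and from 7.94 to 8.21 in rad30Δ cells over them. Of 846 values of the 9 genes under alternatives, 823 kept direction and side of the threshold, 17 changed sign, all without a call, 3 gained a call and 3 lost it. Between the strains after galactose 0 genes were called when those libraries were fitted alone, and 0 to 3 when a library was left out.

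Signs turned for GAL4 in the WT response without WT galactose replicate 1 (-0.01, range over left-out libraries up to 0.09). Between the arrested strains they turned without WT replicate 3 for GAL1 (0.02, range -0.36 to 0.02) and GAL10 (0.1), without rad30Δ replicate 2 for GAL10 (0.12, range -0.4 to 0.12), and for GAL4 without WT replicate 1 or 2 (-0.02 each) and without rad30Δ replicate 2 (-0.02) or 3 (-0.01, range -0.02 to 0.06). After galactose they turned without rad30Δ replicate 1 for GAL1 (-0.03 to 0.11), GAL10 (-0.02 to 0.16) and GAL80 (-0.04 to 0.24). In the difference of the responses they turned for GAL10 without arrested WT replicate 3 (-0.03) and arrested rad30Δ replicate 2 (-0.05, range -0.05 to 0.46), for GAL80 without rad30Δ galactose replicate 1 (-0.01 to 0.27), for MTH1 without rad30Δ galactose replicate 3 (0.03, range -0.13 to 0.03), and for PGM2 without arrested WT replicate 1 (0.02) and rad30Δ galactose replicate 2 (0.1, range -0.25 to 0.1).

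Of the 32 other genes, fitting the libraries alone called 18 in the WT response (8 higher, 10 lower), 6 between the arrested strains and 3 after galactose. Between the arrested strains DESeq2 called 2 and the replicate block 2, and leaving out a library gave 0 to 5. After galactose leaving out a library gave 2 to 14. The replicate block changed no call of the 9 genes, and with it the GAL3 difference of the responses was 0.55 (adjusted p = 0.162). The interaction uses all libraries, so it was not fitted on part of them.

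The share of all genes called moved more than the calls of the 9 genes. Fitted alone, the comparisons called 32.9% (WT response), 1.72% (rad30Δ response), 16.7% (arrest) and 13.9% (after galactose), and DESeq2 called 9.66% in the rad30Δ response and 1.04% in the interaction, where the replicate block called 0.293%. Leaving out a library gave 5.12% to 22.3%, 3.41% to 10.8%, 6.01% to 17.1%, 13.8% to 31.0% and, for the interaction, 0.0618% to 2.18%. The ratios and read shares stayed within their spread under each alternative run. The cause of these changes was not tested. GAL7 and GAL10 had 21 to 64 and 45 to 91 reads per arrested library.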

Other observations

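In replicate 1 of the rad30Δ cells after galactose, 2 genes of the glucose side of the regulation stood low, a pattern seen only once the values were in hand. STD1, the paralogue of MTH1, gave 21.9 CPM there against 65.4 and 62.9 CPM in the other two libraries, and MIG2 gave 38.0 CPM against 140.2 and 135 CPM. In the same library MTH1 was the highest of its group at 483 CPM, so the ratio of MTH1 to STD1 was 22.6 there against 7.03 and 6.32, while the WT galactose libraries gave 9.28, 9.32 and 8.33. The MIG2 fall in rad30Δ cells was called with or without that library and was lost without any of the arrested rad30Δ libraries and with the libraries fitted alone (log2 fold changes -1.6 to -0.91 over 20 settings). The coding sequences of MTH1 and STD1 share 68.8% of bases.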
